A study of Mus musculus with 14 samples.

Results

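The genes described here encode parts of the spliceosome and of its close relatives. Every gene was taken whose symbol begins with Sf3a, Sf3b, Snrp, Prpf, Lsm, U2af or Srsf (followed by a number for Sf3a, Sf3b, Prpf, Lsm and Srsf), except the imprinted gene Snrpn. That gave 58 of 22490 gene symbols. The 58 fell into 8 roles, namely 7 proteins of the Sm ring, 4 other Snrp proteins, 8 of SF3a and SF3b, 3 of U2af, 13 Prpf factors, 6 of the Lsm2 to Lsm8 group, 6 other Lsm proteins and 11 Srsf proteins. Of these, 56 reached 1 FPKM (fragments per kilobase of transcript, scaled to the depth of the library) in at least 2 libraries and were tested. Prpf19, the ubiquitin ligase of the spliceosome, and Srsf12 did not, and had at most 0.625 and 0.44 FPKM.

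Sequencing covered 14 libraries in 7 groups of 2. Mouse embryos came from in vitro fertilisation (IVF) or from nuclear transfer (SCNT), where the nucleus of a somatic cell is put in place of the oocyte's own. The groups were donor cumulus cells, which surround the oocyte (about 1000 cells per library), IVF 1-cell embryos (32 and 31 embryos), SCNT 1-cell embryos (36 each), IVF 2-cell embryos (25 each), SCNT 2-cell embryos (40 each), and 2 further groups of SCNT 2-cell embryos with overexpression, either of Kdm4d, which removes methyl groups from lysine 9 of histone H3, or of a mutant form of it (25 each). IVF embryos came from C57BL/6J oocytes and CAST/EiJ sperm, and SCNT embryos from (C57BL/6J x CAST/EiJ) F1 donor cells and B6D2F1 oocytes, so the kind of embryo and the strain of the oocyte cannot be told apart. The donor strain is the one in the strain label. The collection protocol names BDF1 females for the cumulus cells instead. The sources used here do not give the mutation or the way in which Kdm4d was supplied. Each library pooled embryos or cells, and no label calls the replicates separate experiments. The p-values thus measure only the spread between these libraries, pooled over the 7 groups, which may be technical.

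The spliceosome removes introns from new transcripts. It is built from small nuclear ribonucleoproteins (snRNPs), RNA-protein particles whose RNAs carry a ring of Sm proteins or, for U6, of Lsm proteins. Around the 2-cell stage the mouse embryo passes from RNA stored in the oocyte to transcripts of its own genome, and these need splicing. U1 marks the start of the intron, the U2AF dimer and the SF3a and SF3b complexes of U2 mark its end and branch point, the Prpf factors serve largely in the joined U4, U5 and U6 particle, and SR proteins (Srsf) choose among exons.

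The targeted gene was present where its label put it. Kdm4d stood at 8880 and 2260 FPKM in the Kdm4d libraries, at 723 and 283 in the mutant libraries and at no more than 0.759 in any other library, so the mutant transcript was the lower of the overexpressed forms. Summed FPKM ran from 183007 to 345452 per library. Depth, read from the smallest steps of the values and set to 1 in the deepest library, was 0.418 to 0.514 in the 4 libraries overexpressing a form of Kdm4d, 0.59 in both donor libraries and 0.779 to 1 in the others. Cumulus and granulosa markers (20 genes) summed to 27700 and 21200 FPKM in donor cells and to between 9.6 and 192 in embryos. Oocyte markers (19 genes) summed to 14.9 and 16.3 in donor cells and to between 2910 and 23600 in embryos. Markers of immune cells (8 genes), sperm (6) and oviduct epithelium (6) summed to at most 31.4, 13.1 and 112 FPKM in any library.

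Together the 58 genes took between 0.74% and 1.21% of a library's summed FPKM. The lowest shares were those of the donor libraries (0.74% and 0.775%) and those of IVF 2-cell embryos were 1.17% and 1.21%, beside 1.1% and 1.17% in Kdm4d embryos. The makeup of that share differed more than its size. The Sm ring held 0.401% to 0.408% in IVF 1-cell embryos and 0.329% and 0.343% in SCNT 1-cell embryos. It held 0.417% and 0.458% in IVF 2-cell embryos and 0.226% and 0.229% in SCNT 2-cell embryos. The Srsf genes held 0.0756% and 0.0775% in IVF 1-cell embryos, 0.261% and 0.267% in IVF 2-cell embryos and 0.302% and 0.295% in SCNT 2-cell embryos. In the bulk donor libraries, fewer cells of a type and less RNA per cell cannot be told apart. FPKM is relative to each library's total, so a change in a gene's RNA per embryo cannot be told apart from a change in the total.

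**Figure D1:**
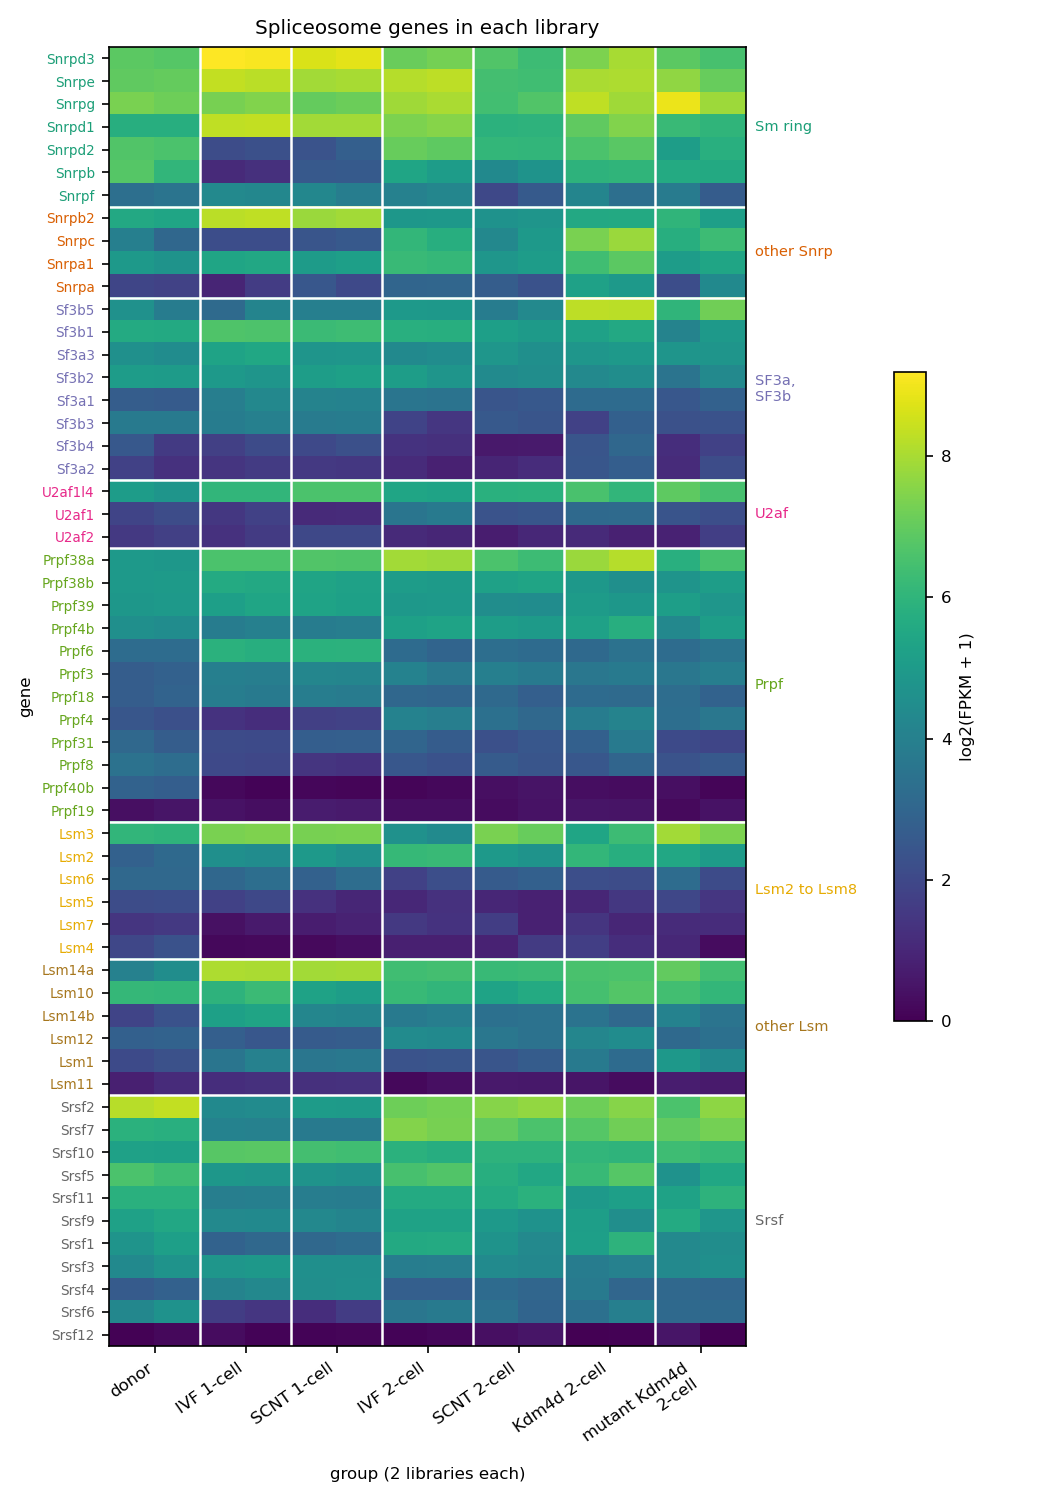
Level of 57 of the 58 genes (vertical axis, grouped by role and sorted by mean level) in each of the 14 libraries (horizontal axis, 2 per group), with colour giving log2(FPKM + 1). Snrpd3, Snrpb2 and Lsm14a are bright in the 1-cell columns, Snrpb, Snrpd2, Srsf6 and Srsf1 are dark there, and Sf3b5 is bright in both Kdm4d columns.

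The 7 Sm proteins sit in equal copy in the ring, but their transcripts did not stand at equal FPKM. FPKM corrects for transcript length and library depth only, so levels of different genes can be compared only roughly. The share of G and C was 57.7% in Snrpb and 52.3% in Snrpd2, the highest of the ring, and from 41.3% to 47.7% in the others. The part of base content or of poly(A) tail length in the ratios below was not tested. In IVF 1-cell embryos Snrpd3 had 584 and 555 FPKM, the highest of the ring, and Snrpb had 1.16 and 1.4, the lowest, a ratio of 503 and 396. In IVF 2-cell embryos the highest, Snrpe, exceeded the lowest, Snrpf, by 18.8 and 17.6 times, and in donor cells Snrpg exceeded Snrpf by 17.6 and 13.7 times. The unequal levels of the 1-cell stage rested on Snrpb and Snrpd2, which were both under 6 FPKM in all 4 1-cell libraries while Snrpd1, Snrpd3, Snrpe and Snrpg were all at 128 FPKM or more.

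Snrpf is an uncertain member of the ring, since 89.5% of the 50-base stretches of its annotated transcripts also occur in other genes, chiefly the antisense neighbour Ccdc38, which itself had between 0.352 and 8.05 FPKM. The labels do not say whether reads were counted by strand. The same measure was 45.3% for Sf3b4, 42.4% for U2af1l4 (which overlaps Psenen), 39.5% for Srsf4, 21.7% for U2af1, 20.7% for Srsf2 and 20.2% for Snrpa, and their values are uncertain to that extent. It was 11.6% for Snrpg, 9% for Snrpe and at most 6.26% for Snrpb, Snrpd1, Snrpd2 and Snrpd3. In build mm9, Snrpe lies at chr1:135500448-135506857, Snrpb at chr2:129997372-130005100, Snrpd2 at chr7:19735187-19738075, Lsm3 at chr6:91466029-91472614 and Prpf38a at chr4:108237472-108251941. Sf3b5, at chr10:12728256-12728989, has 1 exon in the GENCODE annotation, so its reads cannot show splicing.

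RefSeq promoter windows (GRCm38.p6, 250 bases before to 50 after the gene's start) were found for 48 of the 58 genes. The windows of Snrpb, Snrpd1 and Sf3b5 were among those not found. The letters CCGGAAG, a form of the motif bound by ETS factors, were searched on both strands (CTTCCGG on the other) and occurred in 17 of the 48 windows (35.4%), against 9.12% of all 27025 windows. They occurred in 5 of 6 windows of SF3a and SF3b genes, 2 of 5 of Sm ring genes and 4 of 11 of Srsf genes. GGGCGG, the letters bound by Sp1, occurred in 33 of 48 (68.8%) against 35.9% of all windows. A match of letters is a description and no evidence of binding. The windows of 3 of the 5 Sm ring genes that have one are printed as examples. They differ in these letters, although all 7 Sm ring genes moved alike in 2 comparisons below. All 7 were lower in SCNT than in IVF 2-cell embryos and higher with Kdm4d than in plain SCNT embryos. Those 2 comparisons share the plain SCNT libraries. Of the 3 genes, only Snrpe was called higher with Kdm4d than with the mutant. Snrpe and Snrpg hold the ETS letters, given in capitals. Snrpf, whose FPKM values are uncertain as said above, does not, and nor do Snrpd2 and Snrpd3, whose windows are not printed. Snrpe is at chr1:133610231-133610530 (minus strand), Snrpg at chr6:86371290-86371589 (plus strand) and Snrpf at chr10:93589609-93589908 (minus strand).
Snrpe: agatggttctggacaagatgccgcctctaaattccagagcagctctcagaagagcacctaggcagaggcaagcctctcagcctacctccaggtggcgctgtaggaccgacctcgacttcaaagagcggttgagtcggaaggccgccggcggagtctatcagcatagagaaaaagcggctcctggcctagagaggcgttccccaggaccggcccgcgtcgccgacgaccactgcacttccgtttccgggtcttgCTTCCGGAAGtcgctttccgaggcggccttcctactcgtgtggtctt
Snrpg: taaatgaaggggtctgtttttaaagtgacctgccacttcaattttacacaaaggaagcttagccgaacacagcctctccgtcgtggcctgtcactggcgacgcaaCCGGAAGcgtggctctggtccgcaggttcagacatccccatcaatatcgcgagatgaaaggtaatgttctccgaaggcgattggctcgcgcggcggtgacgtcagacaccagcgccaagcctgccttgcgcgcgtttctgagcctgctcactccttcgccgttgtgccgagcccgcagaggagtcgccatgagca
Snrpf: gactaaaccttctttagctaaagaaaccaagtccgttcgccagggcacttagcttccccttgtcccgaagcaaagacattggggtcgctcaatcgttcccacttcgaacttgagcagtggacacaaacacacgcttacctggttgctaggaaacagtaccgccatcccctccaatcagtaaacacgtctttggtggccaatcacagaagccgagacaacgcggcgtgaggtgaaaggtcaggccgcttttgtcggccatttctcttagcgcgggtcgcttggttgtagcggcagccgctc

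From the 1-cell to the 2-cell stage of IVF embryos, Snrpd2, Snrpb, Snrpc and Srsf7 rose most and Snrpb2, Lsm3, Prpf6 and Sf3b3 fell most. Of the 56 tested, 21 were higher at the 2-cell stage (of all genes tested, 30.4% were) and 22 lower (37.2% of all genes), by limma with Benjamini-Hochberg adjustment over 13452 genes. The median difference was -0.01 on the log2(FPKM + 1) scale, against -0.06 over all genes, so the members as a whole stood near the background. Oocyte marker sums were 23600 and 23300 FPKM at the 1-cell stage and 8010 and 8320 at the 2-cell stage, and 2-cell markers (12 genes) summed to 7.07 and 6.58 and then to 2780 and 2660. Their part in the results was not tested.

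The transcripts of the Sm ring were themselves divided. Snrpd2 went from 3.35 and 3.74 FPKM to 132 and 120, a rise of 4.81 on the log2(FPKM + 1) scale (SE 0.21, adjusted p = 4.4e-09, limma). Snrpb went from 1.16 and 1.4 FPKM to 41.6 and 32.7, a rise of 4.06 (SE 0.22, adjusted p = 1.7e-08, limma). Snrpd3 went from 584 and 555 FPKM to 135 and 154 and fell by 1.97 (SE 0.21, adjusted p = 4.9e-06, limma), and Snrpd1 fell by 0.88. In none of these 4 genes did the libraries of the stages overlap (87.7% of all genes did not), which was a condition for naming Snrpd2 and Snrpb. Snrpe had 323 and 305 FPKM at the 1-cell stage and 288 and 312 at the 2-cell stage, which overlap, and neither it nor Snrpf or Snrpg passed the test.

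The other Snrp genes were divided too. Snrpb2 encodes a protein that binds the U2 RNA, and Snrpa its close relative in the U1 particle. Snrpb2 had 304 and 318 FPKM in IVF 1-cell embryos and 28.3 and 28.9 at the 2-cell stage, and fell by 3.40 on the log2(FPKM + 1) scale (SE 0.21, adjusted p = 5.1e-08, limma). Snrpa had 0.924 and 2.12 FPKM and then 6.97 and 7.23, a rise of 1.72 (SE 0.52, adjusted p = 0.01, limma). Snrpc, another protein of the U1 particle, went from 3.56 and 3.52 FPKM to 67.1 and 53.8, a rise of 3.75 (SE 0.30, adjusted p = 4.5e-07, limma). Snrpa1, the partner of the Snrpb2 protein in U2, rose by 0.71. The libraries of the stages did not overlap for these 4 genes (87.7% of all genes did not), which was a condition for naming Snrpb2 and Snrpc. The ratio of Snrpb2 to Snrpa was 329 and 150 in the 1-cell and 4.07 and 4 in the 2-cell libraries.

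The transcripts of SR proteins mostly rose. Of 10 Srsf genes tested, 7 were higher at the 2-cell stage (Srsf1, Srsf2, Srsf5, Srsf6, Srsf7, Srsf9 and Srsf11) and 3 lower (Srsf3, Srsf4 and Srsf10), with a median difference of 1.73. Of all genes tested, 30.4% were higher and 37.2% lower. Srsf7 went from 15.8 and 15.3 FPKM to 178 and 157, a rise of 3.35 on the log2(FPKM + 1) scale (SE 0.18, adjusted p = 1.8e-08, limma). Srsf2, the Srsf gene with the highest mean over the groups, went from 19.7 and 20.5 to 142 and 152, a rise of 2.81. Srsf10, an SR-related factor known mainly as a splicing repressor, stood highest of the family at the 1-cell stage, with 110 and 114 FPKM, and fell by 1.02 to 57.6 and 52.4.

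Of 8 SF3a and SF3b genes, 1 rose (Sf3b5, by 1.25) and 4 fell, where 30.4% of all genes rose and 37.2% fell. Sf3b3 had 13.5 and 15 FPKM and then 2.58 and 1.73, a difference of -2.28 on the log2(FPKM + 1) scale (SE 0.27, adjusted p = 1.3e-05, limma), and Sf3b1, which contacts the branch point, fell by 0.87. Of 12 Prpf genes, 4 rose and 4 fell, which is near those shares. Prpf6, which bridges U5 to the U4 and U6 particle, had 57 and 53.2 FPKM and then 8.25 and 6.72, and fell by 2.73 (SE 0.16, adjusted p = 3.5e-08, limma). Prpf38a, a factor of spliceosome activation, went from 95 and 95.1 to 240 and 228, a rise of 1.29. U2af1, the small subunit of U2AF, went from 1.8 and 2.45 FPKM to 10.9 and 12.5, a rise of 2.03, while U2af1l4, which is related to it, fell by 0.68.

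Among the Lsm genes, Lsm3 fell below Lsm2. Lsm3 had 163 and 170 FPKM at the 1-cell stage and 24.1 and 20.1 at the 2-cell stage, and fell by 2.86 on the log2(FPKM + 1) scale (SE 0.26, adjusted p = 1.1e-06, limma). Lsm2 went from 22.8 and 21.3 FPKM to 70.6 and 74.3, a rise of 1.67 (SE 0.19, adjusted p = 9.5e-06, limma). The ratio of Lsm3 to Lsm2, which belong to the same ring, was thus 7.16 and 7.96 before and 0.341 and 0.271 after. Of the 6 other Lsm genes, Lsm12 rose by 1.76 and 4 fell (37.2% of all genes fell). Lsm14a, an RNA-binding repressor of translation that stood at 265 and 258 FPKM in IVF 1-cell embryos, fell by 1.62, and its relative Lsm14b fell by 1.47.

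**Figure D2:**
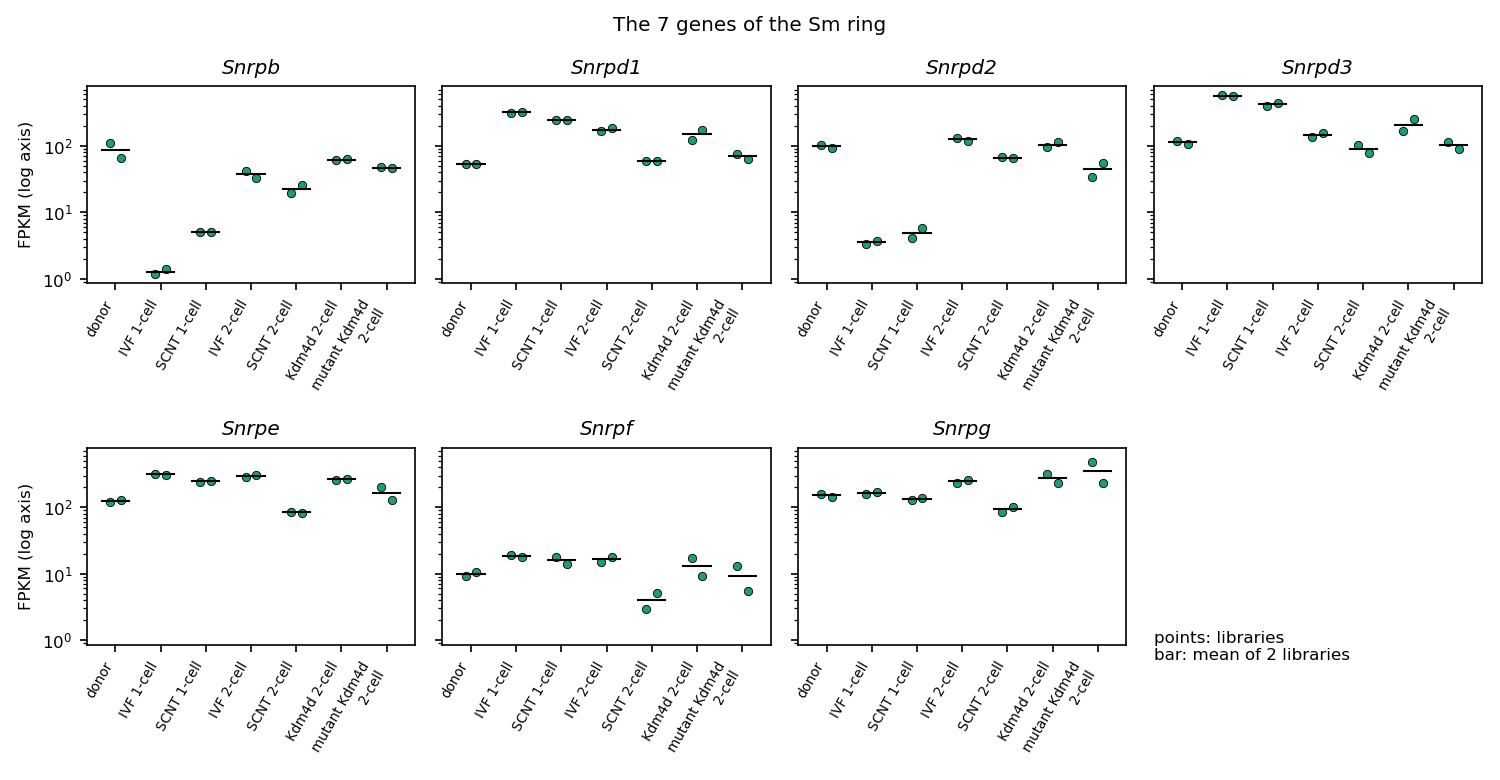
FPKM (vertical, log axis) of the 7 Sm ring genes in the 7 groups (horizontal), with a point per library and a bar at the mean of 2 libraries. Snrpb and Snrpd2 lie near the bottom in both 1-cell groups and Snrpd1 and Snrpd3 near the top, and all 7 genes lie lower in SCNT than in IVF 2-cell embryos.

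In SCNT embryos 15 of the 56 genes were higher at the 2-cell than at the 1-cell stage (35.5% of all genes were) and 21 lower (31.5%), with a median of -0.23 against 0.06 over all genes. The IVF and SCNT stage comparisons share no library. Of the 21 genes that rose in IVF, 13 rose in SCNT (61.9%), which is 86.7% of the 15 that rose there. Of the 22 that fell in IVF, 16 fell in SCNT (72.7%), which is 76.2% of the 21 that fell there. Over all genes these shares were 75.8%, 64.9%, 73.1% and 86.2%. No member rose in one kind of embryo and fell in the other. Of all 13452 genes, 118 rose in IVF and fell in SCNT and 147 did the reverse, so the members were near the background here. Spearman's rho between the differences was 0.829 over the 56 genes and 0.826 over all 13452, given as a description across genes. Oocyte marker sums were 19500 and 20600 FPKM in SCNT 1-cell and 2910 and 2930 in SCNT 2-cell embryos.

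The largest shifts in SCNT embryos were in genes that also changed in IVF embryos. Snrpd2 went from 4.08 and 5.81 FPKM to 67.4 and 65.4, a rise of 3.52 on the log2(FPKM + 1) scale (SE 0.21, adjusted p = 9.9e-08, limma). Srsf7 went from 12.8 and 12.9 FPKM to 126 and 94.9, a rise of 2.99 (SE 0.18, adjusted p = 9.7e-08, limma), Srsf2 rose by 2.59 and Snrpc by 2.14. Snrpb2 went from 222 and 242 FPKM to 24.9 and 26.4 and fell by 3.13 (SE 0.21, adjusted p = 2.1e-07, limma). Prpf6 fell by 2.62, Snrpd3 by 2.22 and Snrpd1 by 2.01. Having no overlap between the stages was a condition for naming these 8 genes (86.4% of all genes did not overlap).

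The stage change itself differed between SCNT and IVF embryos for 19 of the 56 genes (29.2% of all genes) by the interaction term of the same limma model. It was higher in SCNT for 4 (16.5% of all genes) and lower for 15 (12.7%), with a median of -0.31 against 0.17 over all genes. Of the 7 Sm ring genes, 5 were among the 15 (Snrpb, Snrpd1, Snrpd2, Snrpe and Snrpf). Snrpe is an example, since it did not pass the test in IVF embryos but went from 238 and 253 FPKM to 86.4 and 82.9 in SCNT embryos, and its stage change was lower there by 1.45 on the log2(FPKM + 1) scale (SE 0.26, adjusted p = 0.0017, limma). Lsm3 went the other way. It had 156 and 160 FPKM and then 160 and 132 in SCNT embryos, which overlap, and the interaction was 2.75 (SE 0.36, adjusted p = 0.00033, limma). The stage change of Snrpb was lower in SCNT by 2.08 and that of Lsm2 by 1.62, and that of Sf3a3 was higher by 0.87. The count of 15 was between 8 and 11 without 1 library, with 8 without SCNT 1-cell replicate 2 and 9 without IVF 2-cell replicate 1, and the count of 4 was 2 without any 1 library.

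**Figure D3:**
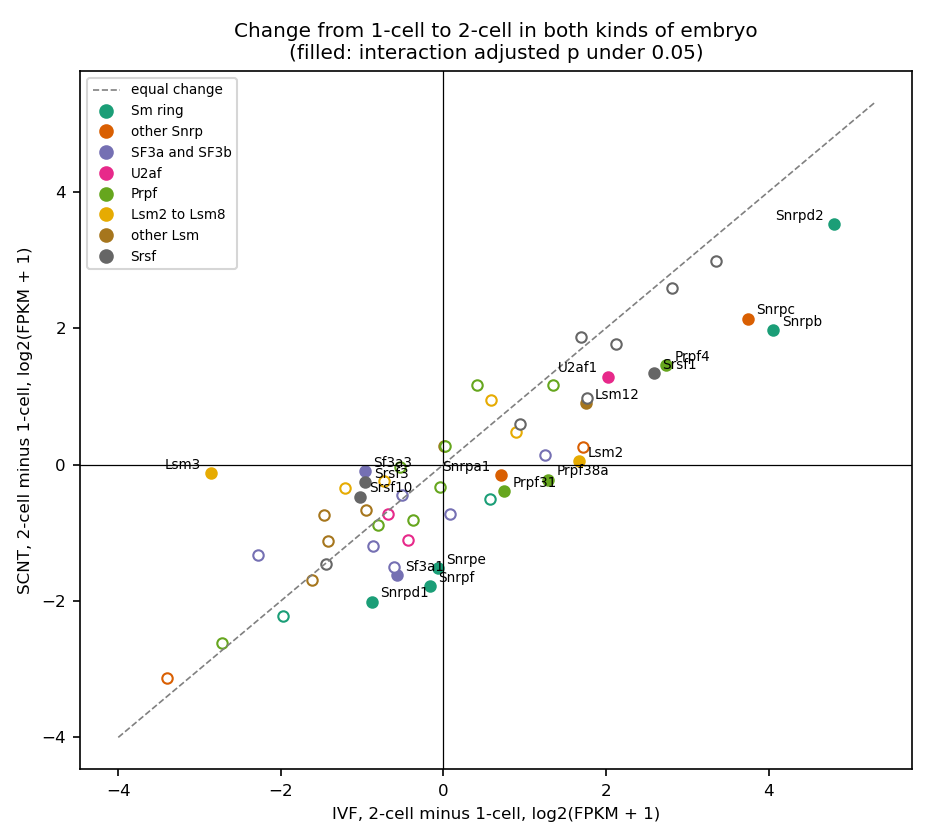
Change from the 1-cell to the 2-cell stage in IVF (horizontal) and SCNT embryos (vertical), each as a difference in log2(FPKM + 1), for 55 of the 56 genes, coloured by role and filled where the interaction had an adjusted p under 0.05, with a dashed line of equal change. Lsm3 lies far above the line, and Snrpb, Snrpc, Lsm2 and Prpf38a lie below it.

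At the 1-cell stage Snrpb was higher in SCNT embryos and Lsm14b and Lsm10 lower, that is 1 gene higher (1.34% of all genes) and 2 lower (0.974%). Snrpb had 4.97 and 5.03 FPKM in SCNT and 1.16 and 1.4 in IVF embryos, a difference of 1.40 on the log2(FPKM + 1) scale (SE 0.22, adjusted p = 0.0072, limma), and it stood at 109 and 65.4 in donor cells. The other 6 Sm ring genes were not called. Snrpd2 was higher on average in SCNT and the rest lower, as Snrpd1 with 241 and 242 against 316 and 328. The median over the 7 was -0.31, against 0.07 over all genes. Lsm14b had 17.4 and 16.6 FPKM against 36.8 and 40.3, a difference of -1.13 (SE 0.21, adjusted p = 0.019, limma). Lsm10, a protein of the U7 particle that processes histone mRNA, had 37.9 and 34.1 against 61 and 75.8, a difference of -0.90 (SE 0.17, adjusted p = 0.02, limma). The libraries of the groups did not overlap for Snrpb, Lsm14b or Lsm10 (66.2% of all genes did not overlap), which was a condition for naming Lsm14b and Lsm10. Leaving out any 1 of the 4 libraries ended all 3 calls, while weighting the groups by their own spread gave 10 genes higher and 18 lower (2547 and 1530 of all genes). The difference ran with the transcript's share of G and C. Spearman's rho was 0.433 over the 56 genes and 0.292 over all genes with a known share, as a description across genes. The part of base content was not tested. Cumulus markers summed to 62.9 and 84.5 FPKM in SCNT against 9.6 and 11.2 in IVF 1-cell embryos, with 7 of the 20 genes at 1 FPKM or more in each SCNT library and 1 in each IVF library. Their part was not tested.

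Donor cells had higher levels of Snrpb, Snrpd2 and most Srsf genes than IVF 1-cell embryos, and lower levels of Lsm14a, Lsm14b and Snrpb2. Against IVF 1-cell embryos, 17 of the 56 genes were higher in donor cells (42.4% of all genes) and 24 lower (35.5%). Of 10 Srsf genes 7 were higher and 2 lower. Srsf2 had 293 and 329 FPKM in donor cells and 19.7 and 20.5 in the embryos, a difference of 3.89 on the log2(FPKM + 1) scale (SE 0.26, adjusted p = 3.6e-08, limma). Snrpb was higher by 5.23 and Snrpd2 by 4.45, and Srsf6 by 2.92. Lsm14a had 15.3 and 21.6 FPKM in donor cells and 265 and 258 in the embryos, a difference of -3.77 (SE 0.20, adjusted p = 3.6e-09, limma), and Lsm14b, Snrpb2 and Snrpd1 were lower by 3.19, 2.81 and 2.56. Having no overlap between the groups was a condition for naming these 8 genes (92.1% of all genes did not overlap). Prpf40b had 6.4 and 5.68 FPKM in donor cells and at most 0.4 in any embryo library. It is among the 17, but it was tested only because the donor libraries reached 1 FPKM, so its call as higher was largely set by that filter. It was also named after its values were seen.

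At the 2-cell stage, SCNT embryos had lower transcript levels of the Sm ring genes than IVF embryos. Protein was not measured. All 7 Sm genes were lower in SCNT, with a median difference of -1.39, and 22 of the 56 spliceosome genes were lower in all (16.6% of all genes), against 4 that were higher (30.3%). The median over the 56 was -0.46, against 0.23 over all genes tested. Without 1 library the count of 4 was 2 (IVF replicate 1) or 1 (any other), and Lsm3 passed in each case while U2af1l4 and Srsf3 passed in none. Snrpe had 86.4 and 82.9 FPKM in SCNT and 288 and 312 in IVF embryos, a difference of -1.81 on the log2(FPKM + 1) scale (SE 0.18, adjusted p = 1.6e-05, limma). Snrpd1 had 58.4 and 59.8 against 166 and 183, a difference of -1.55 (SE 0.16, adjusted p = 2.3e-05, limma). Snrpf had 2.96 and 5.07 against 15.3 and 17.7, a difference of -1.83 (SE 0.35, adjusted p = 0.0013, limma). The libraries of the groups did not overlap for any of the 7 genes (78.8% of all genes did not overlap).

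The other 4 Sm genes differed by less or with more spread. Snrpg had 84.7 and 103 FPKM in SCNT and 234 and 259 in IVF embryos, a difference of -1.39. Snrpd2 had 67.4 and 65.4 against 132 and 120, a difference of -0.91. Snrpb had 19.7 and 25.6 against 41.6 and 32.7, a difference of -0.69 (adjusted p = 0.022, limma), and Snrpd3 had 104 and 78.3 against 135 and 154, a difference of -0.67 (adjusted p = 0.021, limma). Those last 2 are the least secure. After quantile normalization 4 of the 7 Sm genes were lower (Snrpd1, Snrpe, Snrpf and Snrpg), and without 1 library 5 or 6 were, the exceptions being Snrpb or Snrpd3 or both.

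The other Snrp, U2af and SF3 genes were in part lower. Snrpc had 18.7 and 30.3 FPKM against 67.1 and 53.8, a difference of -1.30 (SE 0.30, adjusted p = 0.0045, limma), and Snrpa1 was lower by 1.23, while Snrpa and Snrpb2 did not pass the test. U2af1 had 4.05 and 4.53 against 10.9 and 12.5, a difference of -1.26 (SE 0.18, adjusted p = 0.00016, limma). U2af1l4 was higher in SCNT, with 56.1 and 57.5 against 41.5 and 39.4, by 0.48 (adjusted p = 0.049, limma). Of 8 SF3 genes, Sf3a1 (-1.08) and Sf3b1 (-0.69) were lower and Sf3b3 (0.86, from 2.16 to 4.68 FPKM on average) was higher.

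Prpf38a had 94.4 and 78.8 FPKM in SCNT and 240 and 228 in IVF embryos, a difference of -1.43 on the log2(FPKM + 1) scale (SE 0.21, adjusted p = 0.00026, limma). It led 4 of 12 Prpf genes that were lower (16.6% of all genes), which also held Prpf4 and Prpf39, and none was higher (30.3%). Of 10 Srsf genes, Srsf1 (-1.09), Srsf5 (-0.95) and Srsf7 (-0.61) were lower and Srsf3 was higher, with 20.1 and 18 FPKM against 14 and 14.1, by 0.41 (adjusted p = 0.049, limma). Srsf1 is the prototype SR protein, and it had 25.1 and 19 FPKM in SCNT against 46.7 and 48.4 in IVF embryos. Of the 6 other Lsm genes, Lsm10 and Lsm12 were lower.

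Lsm3 had the largest difference of the 4 genes that were higher in SCNT. It had 160 and 132 FPKM in SCNT 2-cell embryos and 24.1 and 20.1 in IVF 2-cell embryos, a difference of 2.67 (SE 0.26, adjusted p = 1.2e-05, limma). Lsm2 had 30.7 and 25.2 against 70.6 and 74.3, a difference of -1.35 (SE 0.19, adjusted p = 0.00019, limma). Neither overlapped between the groups (78.8% of all genes did not), which was a condition for naming Lsm3. The ratio of Lsm3 to Lsm2 in SCNT 2-cell embryos, 5.22 and 5.25, stood beside 5.23 and 6.61 in SCNT 1-cell embryos. No test was made between these ratios.

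**Figure D4:**
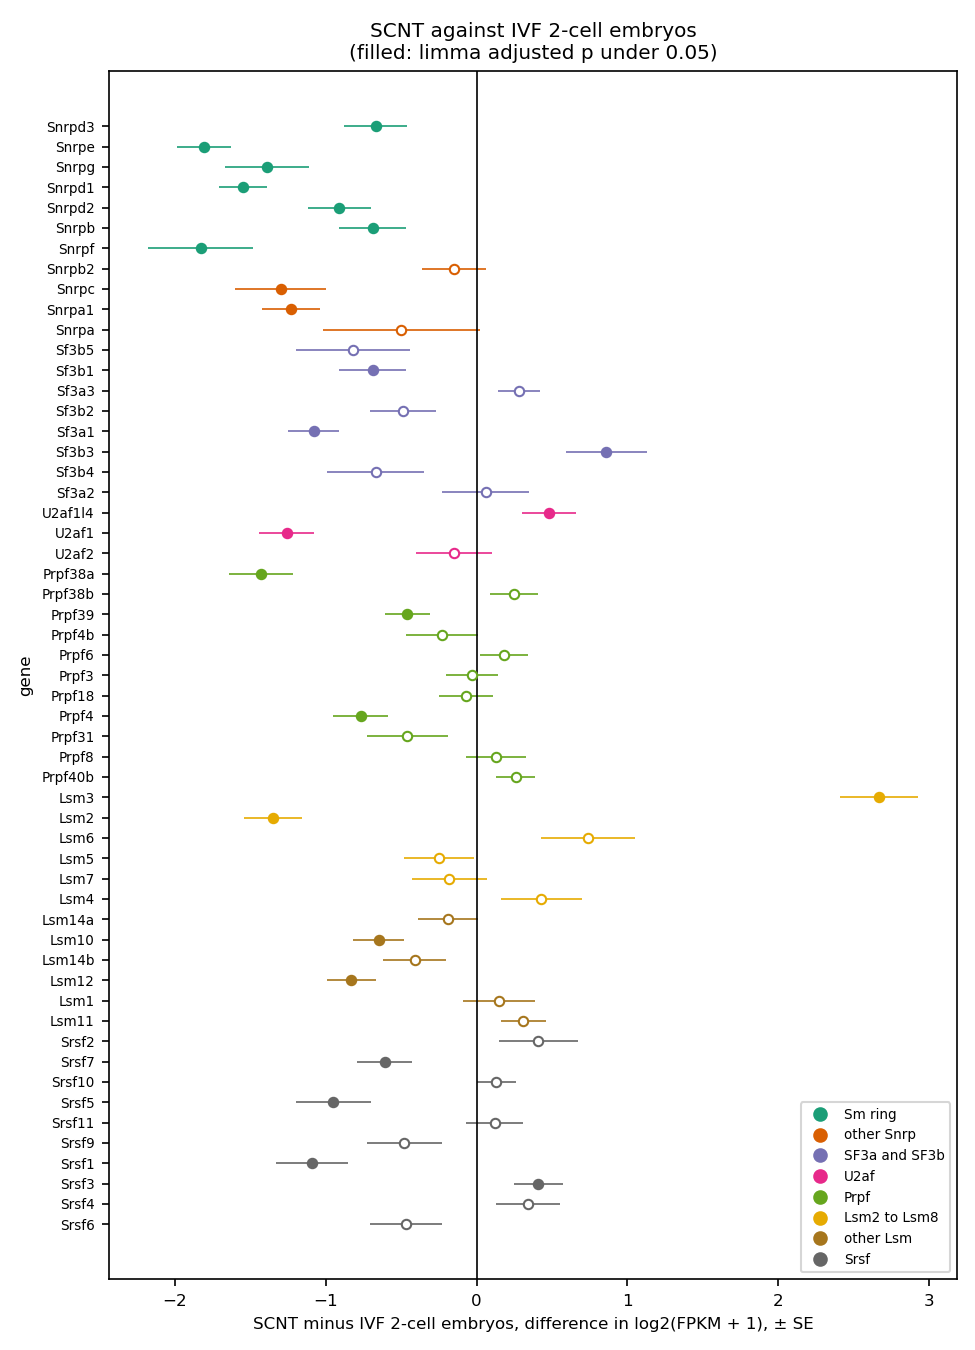
Difference between SCNT and IVF 2-cell embryos (horizontal, log2(FPKM + 1), with the standard error as bars) for 55 of the 56 genes (vertical), coloured by role and filled where limma's adjusted p was under 0.05. All 7 Sm ring genes are filled and left of 0, and Lsm3 stands alone at 2.67.

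Oocyte markers summed to 2910 and 2930 FPKM in SCNT and 8010 and 8320 in IVF 2-cell embryos, and 2-cell markers to 485 and 433 against 2780 and 2660. Of 19 oocyte markers 5 were lower and 3 higher, and of 10 2-cell markers tested 8 were lower and none higher. Their part in the lower Sm ring transcripts was not tested. Quantile normalization moved the median of all genes from 0.23 to 0.00 and turned the split of all genes from 4074 higher and 2228 lower into 2792 and 2713, and that of the 56 genes from 4 higher and 22 lower into 8 and 17.

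Kdm4d overexpression went with higher transcript levels of the Sm ring genes and of the genes of U1 and U2 proteins in SCNT 2-cell embryos. Against plain SCNT 2-cell embryos, 27 of the 56 genes were higher (21.0% of all genes) and 3 lower (18.5%), with a median of 0.47 against -0.02 over all genes. All 7 Sm genes (median 1.42) and all 4 other Snrp genes (median 2.13) were among the 27. Snrpe had 260 and 266 FPKM in Kdm4d and 86.4 and 82.9 in plain SCNT embryos, a difference of 1.62 on the log2(FPKM + 1) scale (SE 0.18, adjusted p = 5.5e-05, limma). Snrpb had 60.2 and 63.5 against 19.7 and 25.6, a difference of 1.42, and Snrpd1 124 and 173 against 58.4 and 59.8, a difference of 1.30. No libraries overlapped between the groups for the 7 Sm genes (65.8% of all genes did not). Without 1 library 5 or 6 of the 7 passed, with Snrpd2 (0.64, adjusted p = 0.033, limma) or Snrpf missing, and after quantile normalization 5 passed, without Snrpd2 and Snrpd3.

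The largest differences lay in SF3 and U1 genes. Sf3b5, a small subunit of SF3b, had 306 and 298 FPKM in Kdm4d embryos and 13.7 and 19.1 in plain SCNT embryos, a difference of 4.14 (SE 0.38, adjusted p = 1.8e-05, limma). Snrpc had 160 and 223 against 18.7 and 30.3, a difference of 2.93 (SE 0.30, adjusted p = 3.5e-05, limma). Snrpa had 37.1 and 29.9 against 5.58 and 3.96, a difference of 2.59 (SE 0.52, adjusted p = 0.0022, limma), and Sf3b4 4.36 and 7.5 against 0.545 and 0.566, a difference of 2.12. Having no overlap between the groups was a condition for naming these 4 genes, and 65.8% of all genes had none. Prpf38a had 225 and 287 against 94.4 and 78.8, a difference of 1.55 (SE 0.21, adjusted p = 0.00022, limma). It led 5 of 12 Prpf genes that were higher (21.0% of all genes).

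The genes that were lower with Kdm4d were Lsm3, Srsf11 and Prpf38b. Lsm3 had 41.6 and 77.9 FPKM in Kdm4d embryos and 160 and 132 in plain SCNT embryos, a difference of -1.34 (SE 0.26, adjusted p = 0.0017, limma). Srsf11 had 29.8 and 35.7 against 48.7 and 56.9, a difference of -0.67, and Prpf38b 29.1 and 23.1 against 36.9 and 39.8, a difference of -0.54. Of the other Srsf genes only Srsf1 (1.05) and Srsf5 (0.83) were higher. The count of 3 lower was 1 without plain SCNT replicate 2. Quantile normalization changed the split from 27 higher and 3 lower to 19 and 8. Oocyte markers summed to 8930 and 8760 FPKM in Kdm4d embryos against 2910 and 2930, and 2-cell markers to 2060 and 3190 against 485 and 433. The difference ran with transcript length, with a Spearman's rho of -0.293 over the 56 genes and -0.184 over all genes with a known length (-0.378 and -0.14 for the mutant), as a description across genes. The part of the markers, of length and of the lower depth of these libraries was not tested.

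With mutant Kdm4d fewer genes differed from plain SCNT 2-cell embryos, and all that were called were higher. The Kdm4d and mutant comparisons share the plain SCNT libraries, so likeness between them is partly built in. Of the 56 genes, 11 were higher (11.3% of all genes) and none lower (6.41%; 6 members at an unadjusted p under 0.05), with a median of 0.15 against 0.01 over all genes. Of the Sm ring, Snrpb, Snrpe and Snrpg were higher. Snrpg had 482 and 230 FPKM in mutant and 84.7 and 103 in plain SCNT embryos, a difference of 1.82 (SE 0.28, adjusted p = 0.0024, limma). Sf3b5 had 63.7 and 145 against 13.7 and 19.1, a difference of 2.50 (SE 0.38, adjusted p = 0.0024, limma), and Snrpc 53.8 and 77.8 against 18.7 and 30.3, a difference of 1.40. Lsm1, of the ring that binds mRNAs in decay, had 28.8 and 19.5 against 4.33 and 5.32, a difference of 2.09 (SE 0.24, adjusted p = 0.00093, limma). Having no overlap was a condition for naming these 4 (52.8% of all genes did not overlap).

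The mutant libraries had the lowest group weight that limma estimated from the spread within groups, 0.263. The Kdm4d libraries had 0.337 and the others 0.865 to 3.08. The main model pools the spread over all groups, so its p-values can understate the spread within the Kdm4d and mutant groups. Snrpa had 3.52 and 19.8 FPKM and Snrpg 482 and 230 in the mutant libraries, and the oocyte markers of these summed to 9470 and 5130. The count of 11 was 4 without plain SCNT replicate 1 and 17 without mutant replicate 2, and the count of none lower was 10 without mutant replicate 2. Quantile normalization gave 9 members higher and 7 lower, and turned the split of all genes from 1515 higher and 862 lower into 1321 and 1395.

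Kdm4d and mutant embryos shared the overexpression and differed in the form of Kdm4d and in its transcript level. Of the 56 genes, 23 were higher with Kdm4d (21.4% of all genes) and 4 lower (22.5%), with a median of 0.35 against -0.09 over all genes. Of the Sm ring Snrpd1, Snrpd2, Snrpd3 and Snrpe were higher. Prpf38a had 225 and 287 FPKM with Kdm4d and 54 and 91.7 with the mutant, a difference of 1.84 (SE 0.21, adjusted p = 8.4e-05, limma). Snrpd1 had 124 and 173 against 74.5 and 64, a difference of 1.07 (SE 0.16, adjusted p = 0.0004, limma), and Snrpd2 94.8 and 114 against 33.6 and 54.7, a difference of 1.26. Sf3b5 had 306 and 298 against 63.7 and 145, a difference of 1.64, and Snrpc 160 and 223 against 53.8 and 77.8, a difference of 1.53. The libraries of the groups did not overlap for any of these 5 (61.5% of all genes did not), which was a condition for naming Prpf38a, Sf3b5 and Snrpc.

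The genes lower with Kdm4d than with the mutant were Lsm3, Lsm1, Srsf11 and Srsf3. Lsm3 had 41.6 and 77.9 FPKM against 243 and 166, a difference of -1.80 (SE 0.26, adjusted p = 0.00028, limma), and Lsm1 12.5 and 8.36 against 28.8 and 19.5, a difference of -1.14 (SE 0.24, adjusted p = 0.0026, limma). Srsf11 had 29.8 and 35.7 against 38.2 and 60, a difference of -0.54, and Srsf3 had 13.5 and 15.5 against 18.9 and 22.6, a difference of -0.49. Having no overlap was a condition for naming these 4, and 61.5% of all genes had none. Weighting the groups by their own spread left 11 of the 23 higher and 1 of the 4 lower, and quantile normalization gave 19 higher and 9 lower. The 2-cell markers summed to 2060 and 3190 FPKM with Kdm4d and to 221 and 577 with the mutant. Their part was not tested.

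This comparison shares no library with that of SCNT against IVF 2-cell embryos, so the members can be set side by side. Of the 22 genes that were lower in SCNT than in IVF embryos, 19 were above 0 between Kdm4d and mutant and 16 of them (72.7% of the 22) were called higher. Over all genes, 2028 of the 2228 lower genes (91%) were above 0 and 1650 (74.1%) were called higher, so the members' shares were near the background. Of the 4 that were higher in SCNT, 3 were below 0, and Lsm3 and Srsf3 were called lower. Over all genes, 3408 of the 4074 higher genes were below 0 and 1921 were called lower, so these counts were near the background too. Spearman's rho was -0.637 over the 56 genes and -0.631 over all 13452, as a description across genes.

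**Figure D5:**
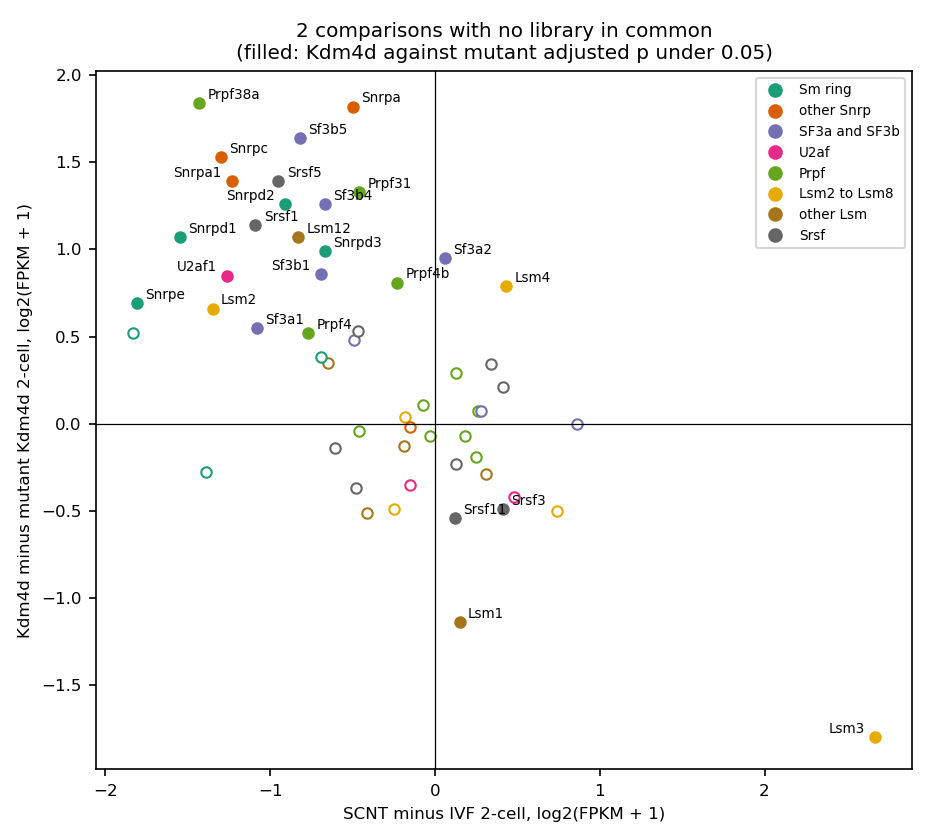
Difference between SCNT and IVF 2-cell embryos (horizontal) and between Kdm4d and mutant Kdm4d 2-cell embryos (vertical), both in log2(FPKM + 1), for 55 of the 56 genes, coloured by role and filled where the Kdm4d against mutant difference had an adjusted p under 0.05. Most filled points lie at upper left, and Lsm3 lies alone at lower right with 2.67 and -1.80.

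Against IVF 2-cell embryos, the Kdm4d embryos had higher levels of Sf3b5, Snrpa, Snrpc and Sf3a2, while the members as a whole stood near the background. Of the 56 genes, 11 were higher (16.6% of all genes) and none lower (3.70%; 5 members at an unadjusted p under 0.05), with a median of 0.12 against 0.18. Sf3b5 had 306 and 298 FPKM against 29.6 and 28.9, a difference of 3.32 (SE 0.38, adjusted p = 0.00025, limma). Snrpc had 160 and 223 against 67.1 and 53.8, a difference of 1.64, and Snrpa 37.1 and 29.9 against 6.97 and 7.23, a difference of 2.08. Sf3a2, of the SF3a complex, had 4.45 and 5.66 against 1.2 and 0.788, a difference of 1.60. Having no overlap was a condition for naming these 4 (57.8% of all genes did not overlap).

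Within the Sm ring, Snrpb alone passed the test (0.73, adjusted p = 0.036, limma), and Snrpe had 260 and 266 FPKM against 288 and 312. A p that misses the threshold does not show that the groups were alike. Lsm3 was still higher than in IVF embryos, with 41.6 and 77.9 FPKM against 24.1 and 20.1, a difference of 1.33 (SE 0.26, adjusted p = 0.0043, limma). The count of 11 was 7 without IVF replicate 1 and 6 without IVF replicate 2. Spearman's rho between the difference and the transcript's share of G and C was 0.249 over the 56 genes and 0.177 over all genes with a known share. The part of base content was not tested. Quantile normalization moved the median of all genes from 0.18 to -0.01, turned the split of all genes from 2235 higher and 498 lower into 917 and 1037, and gave 6 members higher and 7 lower.

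Other genes of the pathway were counted in 8 lists, of which the decapping list also holds the member Lsm1, and Ddx39b stands in both the helicase and the exon junction list. Between SCNT and IVF 2-cell embryos, where 16.6% of all genes were lower and 30.3% higher, the Prp19 complex and the factors of the splicing steps had 15 of 23 genes lower and 2 higher (median -0.87), the exon junction complex, which marks spliced mRNA, 4 of 7 lower and none higher, and the hnRNP proteins 10 of 23 lower and none higher. The machinery that assembles Sm rings, around the SMN complex, had 6 of 16 lower and 1 higher, other snRNP proteins 9 of 23 lower and 5 higher, SR protein kinases and SR-like factors 7 of 16 lower and 2 higher, and the helicases 5 of 10 lower and 3 higher. Partners of the Lsm1 ring in decapping and decay had none of 10 lower and 2 higher.

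Magoh, a core protein of the exon junction complex, had 160 and 147 FPKM in SCNT and 648 and 666 in IVF embryos, a difference of -2.09 (SE 0.17, adjusted p = 3.9e-06, limma). Its partner Rbm8a had 28.8 and 25.4 against 127 and 115, a difference of -2.12. Tgs1, which adds the special cap of snRNAs, had 11.9 and 10.2 against 47.5 and 47.7, a difference of -2.02 (SE 0.17, adjusted p = 5e-06, limma). The helicase Ddx39 had 70 and 66.9 against 304 and 217, a difference of -1.89, and the helicase Dhx16 was higher in SCNT, with 8.98 and 8.13 against 1.96 and 2.75, a difference of 1.52.

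With Kdm4d, compared with plain SCNT embryos (21.0% of all genes higher, 18.5% lower), 14 of 23 genes of the Prp19 and step list were higher and none lower, and so were 10 of 16 of the Sm assembly list, 6 of 7 of the exon junction list and 11 of 23 hnRNP genes. The SR kinase list had 4 of 16 higher and none lower, other snRNP proteins 9 of 23 higher and 1 lower, helicases 3 of 10 higher and 2 lower, and the decapping list 2 of 10 higher and 2 lower. Magoh had 503 and 616 FPKM against 160 and 147, a difference of 1.85, and Clns1a, which holds Sm proteins before assembly, 26.7 and 34.4 against 7.44 and 6.6, a difference of 1.97 (SE 0.20, adjusted p = 3e-05, limma). Against the mutant (21.4% of all genes higher, 22.5% lower), the Prp19 and step list had 15 of 23 genes higher, the Sm assembly list 8 of 16 and other snRNP proteins 11 of 23, with none lower. The exon junction list had 6 of 7 higher and 1 lower, hnRNP genes 10 of 23 higher and 4 lower, helicases 6 of 10 higher and 2 lower, the SR kinase list 6 of 16 higher and 2 lower, and the decapping list 1 of 10 higher and 3 lower.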

How the data were processed

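Per the labels' protocols, cDNA was made with a SMARTer Ultra Low Input kit and sequenced from NEBNext Ultra libraries, as single reads of 50 bases. Such kits prime on poly(A) tails, so transcripts with short tails can be undercounted. The deposited table holds FPKM made by the authors with Novoalign and Cufflinks 2.0.2 on build mm9, per the submitters' processing notes. The sources used here do not give the annotation, the filters or the handling of reads with several matches.

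Short-RNA rows (807 of 23697) were left out and 630 rows sharing a symbol were summed, though each of the 58 genes had a single row. A gene needed 1 FPKM or more in 2 or more libraries. The 13452 that passed were fitted as log2(FPKM + 1) with limma 3.58.1 in R 4.3.3, all 7 groups in a single model with an intensity trend (7 residual and 4.72 prior degrees of freedom). The threshold was a Benjamini-Hochberg adjusted p of 0.05, with adjustment over all genes of a comparison, in 10 comparisons. The fit was tested on simulated data. FPKM gives no counts, so no counting intervals are given. Shared stretches of 50 bases, exons, transcript lengths, shares of G and C and promoters came from GENCODE M21 and RefSeq on GRCm38, by symbol only. Table starts count from 0, so 1 was added to those printed. Replicate numbers did not pair the libraries. Correlations of the deviations of same-numbered libraries ran from -0.155 to 0.191.

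Genes given with library values were, per role, the highest and the most variable member, and per comparison up to 4 called rises and falls with at least 5 FPKM and no overlap, and up to 2 of each from other lists. Srsf1, Prpf40b and values of rule genes in comparisons other than those that chose them were added after their values were seen. The members, roles and lists were chosen with earlier results of these data known. 1 of the 58 genes is counted but not reported here by name or drawn. Alternatives were a pseudocount of 0.1, no filter, quantile normalization, group weights, a replicate block and leaving out each library.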

Additional observations from a re-analysis of the deposited data

Results flagged for a closer look

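The change from the 1-cell to the 2-cell stage differed between SCNT and IVF embryos by limma's interaction term for 4 spliceosome genes in the higher and 15 in the lower direction. The largest higher differences in log2(FPKM + 1) were 2.75 for Lsm3, 0.87 for Sf3a3, 0.70 for Srsf3 and 0.54 for Srsf10. The largest lower ones were -2.08 for Snrpb, -1.62 for Lsm2, -1.61 for Snrpf and -1.61 for Snrpc. Sf3a3 had 26.6 and 27.2 FPKM in SCNT 1-cell and 27.6 and 22.6 in SCNT 2-cell embryos, against 38.9 and 43.2 and then 19.5 and 21.4 in IVF embryos (adjusted p = 0.0069, limma). Srsf10 (adjusted p = 0.039, limma) and Srsf3 (adjusted p = 0.034, limma) each lost the call when a library was left out, and so did Snrpc and Snrpf for some libraries.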

How the results depend on the processing

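No called difference of a named gene changed sign under the alternatives run, but quantile normalization turned the balance of higher and lower calls over all genes for Kdm4d against IVF, mutant against SCNT and the SCNT stage change (4774 higher and 4242 lower became 4137 and 4750), among others. Leaving out 1 library at a time gave these ranges. SCNT against IVF 1-cell counts went from 1 higher and 2 lower to 0. The interaction counts went from 4 higher to 2 and from 15 lower to 8 to 11. SCNT against IVF 2-cell higher went from 4 to 1 to 2. Kdm4d against SCNT lower went from 3 to 1 to 3. Mutant against SCNT went from 11 higher to 4 to 17 and from 0 lower to 0 to 10. Kdm4d against mutant lower went from 4 to 4 to 9. Kdm4d against IVF went from 11 higher to 6 to 14 and from 0 lower to 0 to 2.

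Quantile normalization gave 0 lower for SCNT against IVF 1-cell, 8 higher for SCNT against IVF 2-cell, 8 lower for Kdm4d against SCNT, 7 lower for mutant against SCNT, 9 lower for Kdm4d against mutant, and 6 higher and 7 lower for Kdm4d against IVF. Group weights gave 10 higher and 18 lower for SCNT against IVF 1-cell, 9 higher for the interaction, 5 higher for mutant against SCNT, and 11 higher and 1 lower for Kdm4d against mutant. The causes were not tested.

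The replicate block gave 1 lower instead of 0 for Kdm4d against IVF and moved no other count of spliceosome genes by over 1.5 times, as in 22 lower and 3 higher for SCNT against IVF 2-cell. A crossed pairing, chosen after seeing the data, gave 28 higher for Kdm4d and 12 for mutant against SCNT. Among named genes, leaving out a library left 576 values on their side of the threshold, ended 92 calls and added 12. With 2 libraries a group and no read counts, single genes are measured with limited precision.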
